A study of Mus musculus with 2 samples.

Results

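Transcripts of 8 genes of cholesterol synthesis, Hmgcs1, Idi1, Fdps, Fdft1, Sqle, Lss, Cyp51 and Insig1, were counted in single cells of mouse intestinal organoids at day 5 and at day 3 of culture. The genes were taken by name from the count table, and all 8 were found among its 15745 genes. Of the 8, 7 encode enzymes of the pathway and Insig1 encodes a protein that restrains it, and none of them takes up cholesterol, so uptake genes are described from a list of their own. Organoids are epithelial cultures that grow from intestinal cells in a gel. Those measured came from wild type C57BL/6 mice listed at 10 weeks of age, with 1 library of 1065 cells for day 5 and 1 library of 798 cells for day 3. Both cultures had been given the same basal medium with EGF, Noggin and R-Spondin, with 20% Wnt3a-conditioned medium and the ROCK inhibitor Y-27632 (10 µM) until day 3, and with the GSK3B inhibitor CHIR99021 (3 µM) until day 1. The day 5 organoids then had 2 days without the Wnt3a medium and Y-27632, so the effects of time and of medium cannot be told apart. With 1 library a day there was no test between days, and cells of a library are not replicates, so no p-value is given and all intervals (95%) cover counting error alone.

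Cholesterol is built from acetyl-CoA through mevalonate, isoprenoid diphosphates, squalene and lanosterol. The genes of the pathway are switched on together by the transcription factor SREBP-2 (gene Srebf2), which the escort protein Scap carries out of the endoplasmic reticulum when sterols are low, and which the Insig proteins hold back when sterols are high. In the intestine, absorptive enterocytes at the villus also take up dietary cholesterol through Npc1l1, esterify it with Soat2 and pump part of it back with Abcg5 and Abcg8, while crypt cells divide and need sterol for new membrane. Intestinal epithelium that regrows after damage passes through a state marked by Clu and Ly6a, here called regenerative.

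On mouse build GRCm38, in the GENCODE M21 annotation, the 8 are protein-coding genes. Hmgcs1 lies at chr13:119690379-119708260 (plus strand) and Idi1 at chr13:8885501-8892451 (plus strand). Fdps lies at chr3:89093588-89101959 (minus strand) and Fdft1 at chr14:63145150-63179578 (minus strand). Sqle lies at chr15:59315077-59331192 (plus strand) and Lss at chr10:76531588-76557138 (plus strand). Cyp51 lies at chr5:4081145-4104746 (minus strand) and Insig1 at chr5:28071363-28078662 (plus strand). Fdft1 overlaps Ctsb, Cyp51 overlaps Akap9 and Lss overlaps 4930483K19Rik, all on the opposite strand, and Fdps overlaps Gm43738 on its own strand. Whether the counting used strand is not given in the sources used here, so reads shared with these neighbours could not be separated.

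Promoters of 5 of the 8 genes (Hmgcs1, Idi1, Lss, Cyp51 and Insig1), from 250 bases before to 50 bases after the start, were taken from RefSeq on GRCm38.p6, and Fdps, Fdft1 and Sqle had no entry.
They were searched on both strands for TCACNCCAC, a core of the SREBP element, for the NF-Y box CCAAT and for the Sp1 box GGGCGG, and no match in these 5 promoters overlapped another.
Among all 32851 promoters of that length, 1.24% held the first motif, 37.4% the NF-Y box and 35.7% the Sp1 box.
Of the 5, 1 held the SREBP element core (Hmgcs1, from base -137), and all 5 held at least 1 NF-Y box and at least 1 Sp1 box.
A match describes letters and is no evidence of binding, and a window without a match says only that these letters are not in it.
Below are Hmgcs1 (chr13:119690101-119690400, plus strand), Insig1 (chr5:28071162-28071461, plus strand) and Cyp51 (chr5:4104648-4104947, minus strand), which were higher in absorptive cells of day 5, and Idi1 (chr13:8885356-8885655, plus strand), which was lower there.
Each reads 5′ to 3′ along its gene, and capitals mark the motif matches on either strand.
Hmgcs1: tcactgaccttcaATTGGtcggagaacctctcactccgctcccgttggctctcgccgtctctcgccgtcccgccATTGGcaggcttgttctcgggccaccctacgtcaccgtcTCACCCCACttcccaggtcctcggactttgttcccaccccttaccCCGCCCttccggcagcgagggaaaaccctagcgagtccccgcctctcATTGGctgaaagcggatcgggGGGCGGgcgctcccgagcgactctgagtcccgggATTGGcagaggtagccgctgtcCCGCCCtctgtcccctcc
Insig1: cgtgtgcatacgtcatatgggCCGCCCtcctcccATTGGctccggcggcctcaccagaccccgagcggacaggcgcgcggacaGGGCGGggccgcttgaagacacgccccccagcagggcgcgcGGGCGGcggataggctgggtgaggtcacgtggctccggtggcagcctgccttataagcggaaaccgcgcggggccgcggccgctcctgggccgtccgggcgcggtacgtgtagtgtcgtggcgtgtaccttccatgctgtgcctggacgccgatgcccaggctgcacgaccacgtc
Cyp51: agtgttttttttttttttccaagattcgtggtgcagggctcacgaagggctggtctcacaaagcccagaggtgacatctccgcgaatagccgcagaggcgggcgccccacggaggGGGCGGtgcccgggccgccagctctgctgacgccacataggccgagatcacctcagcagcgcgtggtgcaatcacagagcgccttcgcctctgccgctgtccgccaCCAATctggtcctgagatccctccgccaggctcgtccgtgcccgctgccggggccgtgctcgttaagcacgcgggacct
Idi1: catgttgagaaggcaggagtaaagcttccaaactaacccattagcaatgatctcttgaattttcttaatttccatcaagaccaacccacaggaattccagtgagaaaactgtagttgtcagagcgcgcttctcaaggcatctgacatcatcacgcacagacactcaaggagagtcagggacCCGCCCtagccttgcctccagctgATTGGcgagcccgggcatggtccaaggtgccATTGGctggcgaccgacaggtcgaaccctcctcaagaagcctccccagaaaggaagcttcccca

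The day 5 library held 17349076 unique molecular identifiers (UMIs, each standing for 1 captured transcript), with a median of 13549 per cell, and the day 3 library 28764033 with a median of 32063.5. Levels are UMIs summed over the cells of a group and scaled to 1000000 UMIs (CPM), and a value in brackets after a pair of levels is their log2 ratio, followed where given by its interval. The cells of each library were clustered separately, with the cholesterol genes left out, and a cluster was called X-like from fixed marker genes. Absorptive cells were the Enterocyte-like clusters 8 and 9 of day 5 (375 cells) and cluster 8 of day 3 (88 cells), with the lipid-transport gene Apoa4 at 1823 and 40.5 CPM. Cycling-like cells were clusters 1 and 4 of day 5 (261 cells) and clusters 4 and 10 of day 3 (222 cells). Regenerative-like cells were cluster 6 of day 5 (19 cells) and clusters 1 and 11 of day 3 (93 cells), with Clu at 433 and 1955 CPM. Crypt cells at day 3 were the Stem-like clusters 5 and 9 (139 cells), with the stem cell gene Lgr5 at 49.4 CPM, and these also held the proliferation gene Mki67 at 128 CPM, against 143 CPM in Cycling-like cells. No day 5 cluster met the rule for Stem-like cells. Cluster 2 of day 5 (107 cells), which stays unnamed, was the unnamed day 5 cluster with the most stem markers among its leading genes (2, with Lgr5 at 34.0 CPM), and it was taken as the day 5 crypt group after the clusters were seen. Its Mki67 level was 23.4 CPM. Lgr5 was not particular to cluster 2, with 32.7 CPM in Cycling-like and 45.0 CPM in Paneth-like cells of day 5. Summed markers of immune cells and of stromal cells were at most 8.88 CPM in any of these groups, over the 3 and 2 markers of those lists that were measured. The Paneth cell gene Defa24 was at 40856 CPM in the Paneth-like cells of day 5 and at 87.5 to 243 CPM in the other day 5 groups, as a gauge of how far a very abundant transcript of another cell type was counted there. Cells were named by numbers in place of barcodes, so barcodes shared by the libraries could not be counted.

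Over all cells, each of the 8 genes had a lower CPM at day 5 than at day 3, with Insig1 alone turning the other way under another scaling given below, and 5 of the 8 were lower by at least 1.5-fold: Idi1, Fdps, Sqle, Lss and Cyp51. The 8 genes together made up 0.0669% of UMIs at day 5 and 0.112% at day 3. The background was large, since 36.7% of the 12782 genes with at least 10 UMIs were lower by the same fold and 15.8% were higher. The share of all genes lower by any amount was not counted. The median log2 ratio of the 8 was -0.81, against -0.33 for all genes tested. Scaling by TMM factors (trimmed mean of M-values, from edgeR) moved every ratio by 0.31, which puts the median of the 8 at -0.49 with 4 genes past 1.5-fold, against a median of -0.02 and 21.8% of genes, and the distance of the 8 from the median of all genes was -0.47 either way.

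In the mevalonate arm, Hmgcs1, which makes HMG-CoA early in the pathway, had 93.1 CPM at day 5 (88.7 to 97.8) and 125 CPM at day 3 (121 to 129), a log2 ratio of -0.42 (-0.51 to -0.34) that shrank to -0.11 under TMM. Idi1, which interconverts the isoprenoid building blocks, had 97.1 CPM at day 5 (92.5 to 102) and 185 CPM at day 3 (180.0 to 190.0), a log2 ratio of -0.93 (-1.01 to -0.85). Fdps joins these blocks into farnesyl diphosphate, the branch point to sterols and to protein prenylation. Its level was 180.3 CPM at day 5 (174 to 187) and 289.7 CPM at day 3 (283 to 296), a log2 ratio of -0.68 (-0.74 to -0.62). Fdft1, the squalene synthase that commits farnesyl units to sterols, had 67.0 CPM at day 5 (63.2 to 71.0) and 96.7 CPM at day 3 (93.2 to 100.4), a log2 ratio of -0.53 (-0.63 to -0.43). Of these 4 genes, Idi1 stood furthest from the all-gene median and Hmgcs1 nearest to it.

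In the sterol arm, Sqle, the squalene epoxidase and a second control point of the pathway, had 46.3 CPM at day 5 (43.1 to 49.6) and 107 CPM at day 3 (103 to 111), a log2 ratio of -1.21 (-1.32 to -1.10). Lss, which closes the ring to lanosterol, had 19.7 CPM at day 5 (17.6 to 21.9) and 52.3 CPM at day 3 (49.7 to 55.0), a log2 ratio of -1.41 (-1.59 to -1.24). Sqle and Lss were the pair lower by at least 2-fold in summed CPM. As a difference of means of the authors' log2 values over cells, a scale with 1 added that compresses low genes, Lss was at -0.64 and Sqle at -0.96, so neither reached 2-fold there and the Lss difference was no longer the widest. Cyp51, the lanosterol demethylase, had 81.3 CPM at day 5 (77.1 to 85.6) and 159 CPM at day 3 (155 to 164), a log2 ratio of -0.97 (-1.06 to -0.89). Insig1 holds Scap in the endoplasmic reticulum and is itself a target of SREBP. Its level was 84.3 CPM at day 5 (80.1 to 88.8) and 100.4 CPM at day 3 (96.8 to 104), a log2 ratio of -0.25 (-0.34 to -0.16) that turned to 0.06 under TMM, so its direction depends on the scaling. Without the Enterocyte-like cells of both libraries, the Insig1 ratio was -0.63. No ratio of the other 7 genes changed sign under TMM or without those cells.

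**Figure D1:**
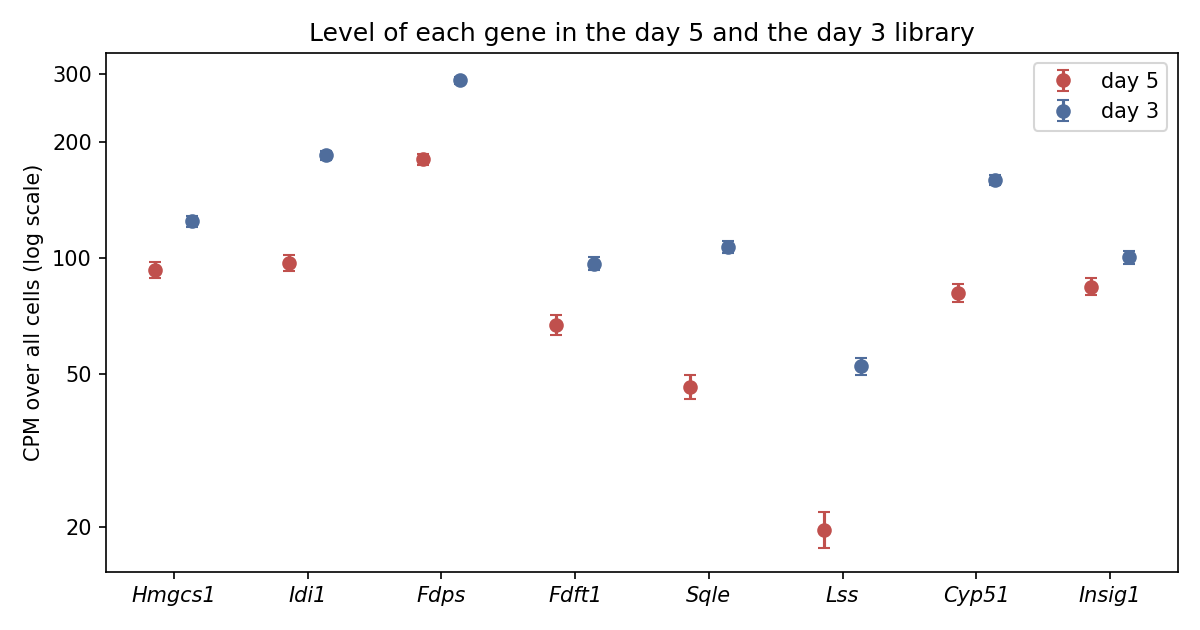
CPM over all cells (log scale) of each gene in the day 5 library (red, left) and the day 3 library (blue, right), with exact Poisson 95% intervals as bars. Every day 5 point lies below its day 3 point, with the widest gap for Lss (19.7 and 52.3 CPM) and the narrowest for Insig1, which turns the other way under TMM scaling (84.3 and 100.4 CPM).

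Other synthesis genes were more often lower than higher in the same comparison, where 36.7% of all genes were lower and 15.8% higher, or 21.8% and 23.3% by TMM. Of 19 other mevalonate and sterol genes, 12 were lower and 1 was higher by at least 1.5-fold and their median log2 ratio was -0.86; TMM scaling left 8 lower and 1 higher. Acat2, which joins acetyl-CoA at the start of the pathway, had 55.1 and 133 CPM at day 5 and day 3 (-1.27). The gene that was higher was Cyb5r3, an electron donor shared with other pathways, at 195 and 83.6 CPM (1.22). Among 13 genes of SREBP control with at least 10 UMIs, the median was -0.34, with 5 lower and 2 higher, or 3 and 4 when scaled by TMM, close to those shares. Srebf2 itself had 45.0 CPM at day 5 and 72.5 CPM at day 3 (-0.69), Scap had a ratio of -1.38, and Insig2, the second Insig gene, 20.9 and 23.7 CPM (-0.18, -0.37 to 0.01). The 11 genes of isoprenoid use had a median of -0.34, near that of all genes, with 4 lower, also close to the share of all genes, and 0 higher, or 2 and 1 when scaled by TMM.

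Of 19 uptake and transport genes, the median over all cells was 0.12, with 6 lower and 6 higher, or 3 and 8 when scaled by TMM, against 36.7% lower and 15.8% higher among all genes, or 21.8% and 23.3% by TMM. Npc1l1, the importer of dietary cholesterol, had 71.1 CPM at day 5 and 17.4 CPM at day 3 (2.03), and the exporter gene Abcg8 64.8 and 15.7 CPM (2.04). Apoa4 moved with them, at 497 and 4.17 CPM, and a larger share of Enterocyte-like cells and more RNA per such cell cannot be told apart in these summed values. The fatty acid genes driven by SREBP-1 had a median of -1.38, with 8 of 10 lower and 1 higher (7 and 1 by TMM), and included Scd2, a fatty acid desaturase, at 162 CPM at day 5 and 629 CPM at day 3 (-1.96).

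Within the day 5 library, Enterocyte-like cells had a slightly higher total of the 8 genes than cluster 2 and a different mix of them. The summed level was 717 CPM in Enterocyte-like cells (691 to 743) and 639 CPM in cluster 2 (603 to 676). The higher total came from Enterocyte-like cluster 9, with 790.1 CPM (754 to 827), while cluster 8, with 629 CPM (594 to 666), overlapped cluster 2. Insig1, which restrains the pathway, had 153 CPM in Enterocyte-like cells and 35.0 CPM in cluster 2, a wider gap than that of the totals. The enzyme genes without Insig1 thus had no higher sum in Enterocyte-like cells by CPM, an order that turned under the TMM scaling given below. Insig1, Cyp51 and Hmgcs1 were higher in Enterocyte-like cells by at least 1.5-fold and Idi1 was lower, where 31.7% of 4910 genes with at least 100 UMIs were higher and 28.1% lower. The median log2 ratio of the 8 was 0.01, against 0.04 for all genes. TMM factors raised all these ratios by 0.25, after which 3 of the 8 were higher, 0 lower, and 39.5% of all genes were higher.

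The widest of these differences was that of Insig1, at 153 CPM in Enterocyte-like cells (141 to 165) and 35.0 CPM in cluster 2 (27.1 to 44.6), a log2 ratio of 2.11 (1.76 to 2.51). Over the alternatives in depth, scaling and clustering of the day 5 library alone, this ratio lay between 2.07, with cholesterol genes kept for clustering, and 2.43, with a finer clustering. With both libraries clustered together it was 1.37. It was then set against the cluster that held most of the cells of cluster 2 but had 0 stem markers among its 25 leading genes. The Enterocyte-like side changed as well, to clusters of 232, 227 and 145 day 5 cells, against 375 cells in the clustering used here. Cyp51 had 110.4 CPM in Enterocyte-like cells and 68.5 CPM in cluster 2 (0.68, 0.40 to 0.98), and Hmgcs1 117 and 74.9 CPM (0.64, 0.37 to 0.93). Idi1 went the other way, with 69.1 CPM in Enterocyte-like cells and 122 CPM in cluster 2 (-0.82, -1.07 to -0.56). Fdps (149 and 207 CPM, -0.47) and Sqle (35.5 and 50.4 CPM, -0.51) were lower by less than 1.5-fold, with intervals below 0. Under TMM they were at -0.22 and -0.26, and the Sqle interval then included 0. Fdft1 (62.0 and 61.6 CPM) and Lss (20.5 and 20.2 CPM) had ratios of 0.01 (-0.31 to 0.34) and 0.01 (-0.54 to 0.61). Under TMM both ratios were larger, with intervals that still included 0. Enterocyte-like cells had a median of 10476 UMIs and 9.33% mitochondrial UMIs, against 14286 and 5.25% in cluster 2, and the part of depth and RNA quality in these ratios was not tested.

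The unnamed clusters 5 and 7 of day 5 lay between these groups in their Apoa4 level. Ordered by Apoa4, from 19.6 CPM in cluster 2 through 70.4 in cluster 5, 302 in cluster 7 and 883 in cluster 8 to 2606 in cluster 9, Insig1 took the values 35.0, 62.6, 96.9, 112 and 187 CPM. Each step of Insig1 was upward, and the intervals of neighbours overlapped only between clusters 7 and 8. In the same order the share of mitochondrial UMIs was 5.25%, 6.23%, 6.93%, 7.85% and 10.6%, rising at each step. Median UMIs per cell fell at each step, from 14286 to 9485, and the part of both was not tested. Hmgcs1 was at 74.9, 88.1, 95.2 and 90.1 CPM in clusters 2, 5, 7 and 8, with overlapping intervals, and at 139.9 CPM in cluster 9. Cyp51 was at 68.5 and 63.5 CPM in clusters 2 and 5 and at 96.9, 102 and 118 CPM in clusters 7, 8 and 9. Idi1 differed at the other end of the order, with 122 CPM in cluster 2 and 62.4 to 74.8 CPM in clusters 5, 7, 8 and 9. Fdps had 207 CPM in cluster 2 and 149 to 154 CPM in the other 4, while Fdft1, Sqle and Lss had overlapping intervals across all 5 clusters. The step at which each gene moved thus differed between Insig1, Idi1, Cyp51 and Hmgcs1.

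**Figure D2:**
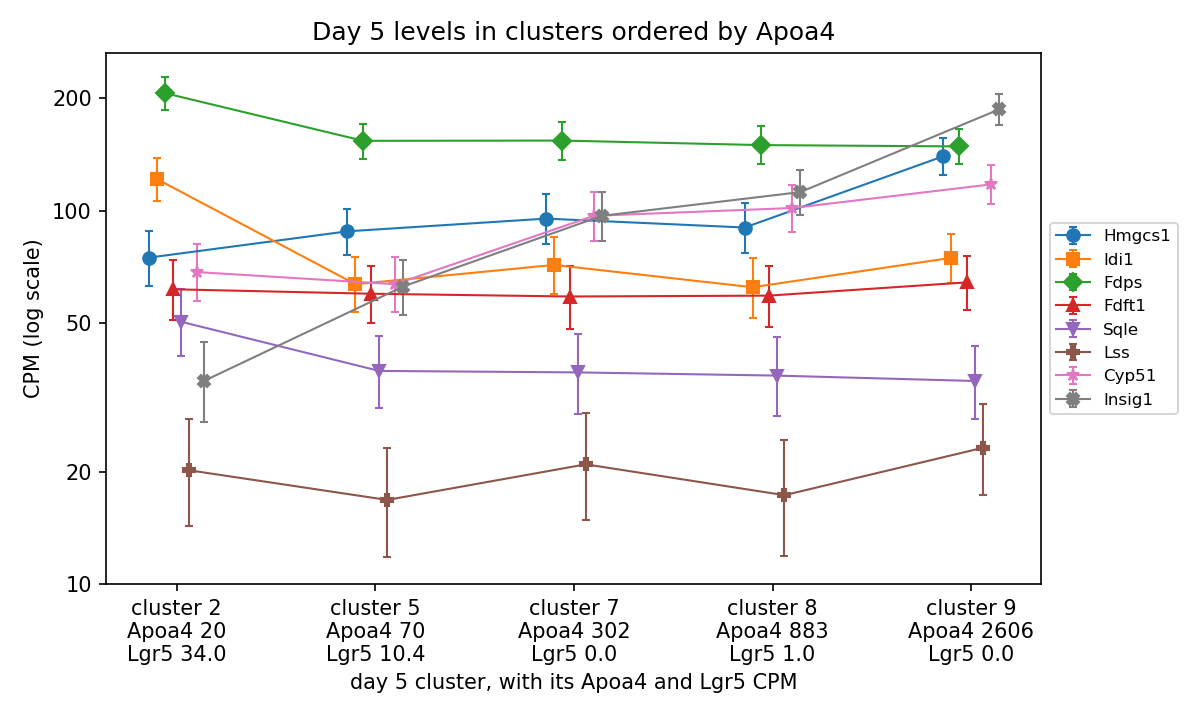
CPM (log scale) of the 8 genes in day 5 clusters 2, 5, 7, 8 and 9, ordered by their Apoa4 level, with exact Poisson 95% intervals. Insig1 is higher at each step, up to 187 CPM in cluster 9, Idi1 is highest in cluster 2, and Lss stays between 16.8 and 23.2 CPM.

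Between the Enterocyte-like clusters of day 5, cluster 9, with more Apoa4 and with the peptide transporter gene Slc15a1 among its leading genes, had more Insig1 and Hmgcs1 than cluster 8, where Reg1 and Fabp1 led. Insig1 had 187 CPM in cluster 9 and 112 CPM in cluster 8 (0.73, 0.50 to 0.98), and Hmgcs1 139.9 and 90.1 CPM (0.63, 0.36 to 0.91). These were 2 of the 7 members with at least 100 UMIs, where 15.9% of 3664 genes were higher in cluster 9 by the same fold and 2.87% lower. The 2 clusters had 10.6% and 7.85% mitochondrial UMIs and medians of 9485 and 11770 UMIs, whose part was not tested.

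Cycling-like cells of day 5 differed little from cluster 2 in these genes. Only Insig1 was past 1.5-fold, at 57.1 CPM in Cycling-like cells and 35.0 CPM in cluster 2 (0.70, 0.32 to 1.11), with 8.69% of 5837 genes higher by that fold and 2.57% lower. The other 7 ratios lay between -0.07 for Cyp51 and 0.30 for Fdft1, and the median of the 8 was 0.10. Set against Cycling-like cells in place of cluster 2, Enterocyte-like cells had log2 ratios of 1.42 for Insig1, 0.76 for Cyp51, -0.91 for Idi1 and -0.71 for Sqle, all past the fold, where 26.5% of 6774 genes were higher and 34.4% lower. Under TMM, Hmgcs1 also passed the fold and Sqle no longer did, with 30.7% of genes higher and 29.8% lower. These comparisons share their cells, so they are not independent of each other.

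The 19 Regenerative-like cells of day 5 gave wide intervals. Cyp51 had 109.8 CPM in Regenerative-like cells and 68.5 CPM in cluster 2 (0.69, 0.19 to 1.16), the single member past 1.5-fold of the 6 with at least 100 UMIs, where 15.3% of 2410 genes were higher and 11.7% lower, and it was under the fold with TMM scaling. Insig1 had 61.3 and 35.0 CPM (0.82, 0.12 to 1.46) with under 100 UMIs over both groups.

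At day 3, the lowest summed level of the 8 genes was in Stem-like cells, with 895 CPM (869 to 922). Enterocyte-like cells had 1305 CPM, Regenerative-like cells 1178, secretory cells (mixed secretory and Enteroendocrine-like, 53 cells) 1130.3 and Cycling-like cells 1129. The interval of the Stem-like cells overlapped none of the other 4. The Stem-like clusters themselves differed, with 819.8 CPM in cluster 5 and 1000.4 CPM in cluster 9, which also had 5 cycling markers among its 25 leading genes.

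In absorptive cells of day 3, Insig1, Fdps and Cyp51 were higher than in Stem-like cells by at least 1.5-fold, where 14.2% of 6002 genes were higher and 26.6% lower, and under TMM Lss passed the fold as well, with 17.1% of genes higher. Insig1 had 138 CPM in Enterocyte-like cells and 73.7 CPM in Stem-like cells (0.91, 0.69 to 1.12). Fdps had 437 and 244 CPM (0.84, 0.72 to 0.96), and Cyp51 206 and 116 CPM (0.83, 0.66 to 1.01). Sqle had 113 and 83.8 CPM (0.43), and Fdps and Sqle, lower in absorptive than in crypt cells at day 5, were thus higher in them at day 3. The crypt groups were unlike in Mki67, at 23.4 CPM in cluster 2 of day 5 and 128 CPM in Stem-like cells of day 3. The part of this was not tested. Set against Cycling-like cells of day 3, Sqle did not differ beyond counting error (-0.01, -0.21 to 0.19). Idi1 was the member below 0 in absorptive cells of both libraries, with 149 CPM in Enterocyte-like and 170.4 CPM in Stem-like cells of day 3 (-0.19, -0.37 to -0.02). Of 11 uptake and transport genes, 6 were higher and 1 lower in these cells with either scaling, including Npc1l1 at 36.6 CPM in Enterocyte-like and 8.56 CPM in Stem-like cells (2.09). The median of the 8 was 0.50, against -0.17 for all genes. Against Cycling-like cells of day 3, Insig1 was the member past the fold in absorptive cells (0.60, 0.41 to 0.79), where 10.7% of 6888 genes were higher and 25.8% lower.

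In Regenerative-like cells of day 3, Hmgcs1, Cyp51 and Lss were higher than in Stem-like cells by at least 1.5-fold, where 27.2% of 6972 genes were higher and 11.4% lower, so 3 of 8 is near the background. Hmgcs1 had 169 CPM in Regenerative-like and 97.4 CPM in Stem-like cells (0.80, 0.62 to 0.97), Cyp51 186 and 116 CPM (0.68), and Lss 50.1 and 32.5 CPM (0.63). Under TMM only Hmgcs1 stayed past the fold, with 19.9% of genes higher, and the small positive ratios of Idi1 (0.19) and Fdps (0.07) turned to -0.01 and -0.13. The Hmgcs1 value rested on 1 of the 2 Regenerative-like clusters, with 198 CPM in cluster 1 (182 to 215) and 77.9 CPM in cluster 11 (60.8 to 98.2). Idi1 and Fdps ran opposite to that, with 181 and 234 CPM in cluster 1 and 237 and 329 CPM in cluster 11. Cluster 1 had 8.75% mitochondrial UMIs and cluster 11 3.10%, whose part was not tested. Outside the 8 genes, Scap had 41.1 CPM in Regenerative-like and 19.9 CPM in Stem-like cells (1.04), and Srebf2 97.4 and 51.4 CPM (0.92, 0.69 to 1.16). Both rested mainly on cluster 1, where Scap had 48.6 CPM and Srebf2 108 CPM, against 17.6 CPM (10.0 to 28.5) and 63.6 CPM (48.3 to 82.2) in cluster 11, intervals that overlap those of Stem-like cells. Of the SREBP control list, 5 of 11 genes with at least 100 UMIs were higher and 0 lower, with either scaling, and of the other sterol genes 5 of 18 were higher and 0 lower (4 and 1 under TMM).

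Cycling-like cells of day 3 were above Stem-like cells for each of the 8 genes, by less than 1.5-fold, though not for Fdps at a coarser clustering. The share of all genes above 0 in this comparison was not counted. The ratios ran from 0.18 for Hmgcs1 (0.02 to 0.34) to 0.54 for Lss (0.27 to 0.82), with a median of 0.34 against 0.03 for all genes. For the largest of them, Lss had 47.3 CPM in Cycling-like and 32.5 CPM in Stem-like cells, and Sqle 114 and 83.8 CPM (0.44). None of the 8 was past the fold, where 4.25% of 7478 genes were higher and 2.07% lower, and at the coarser clustering (resolution 0.5) the median shrank to 0.095 and Fdps was at -0.06, against 0.38 in the clustering used here.

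**Figure D3:**
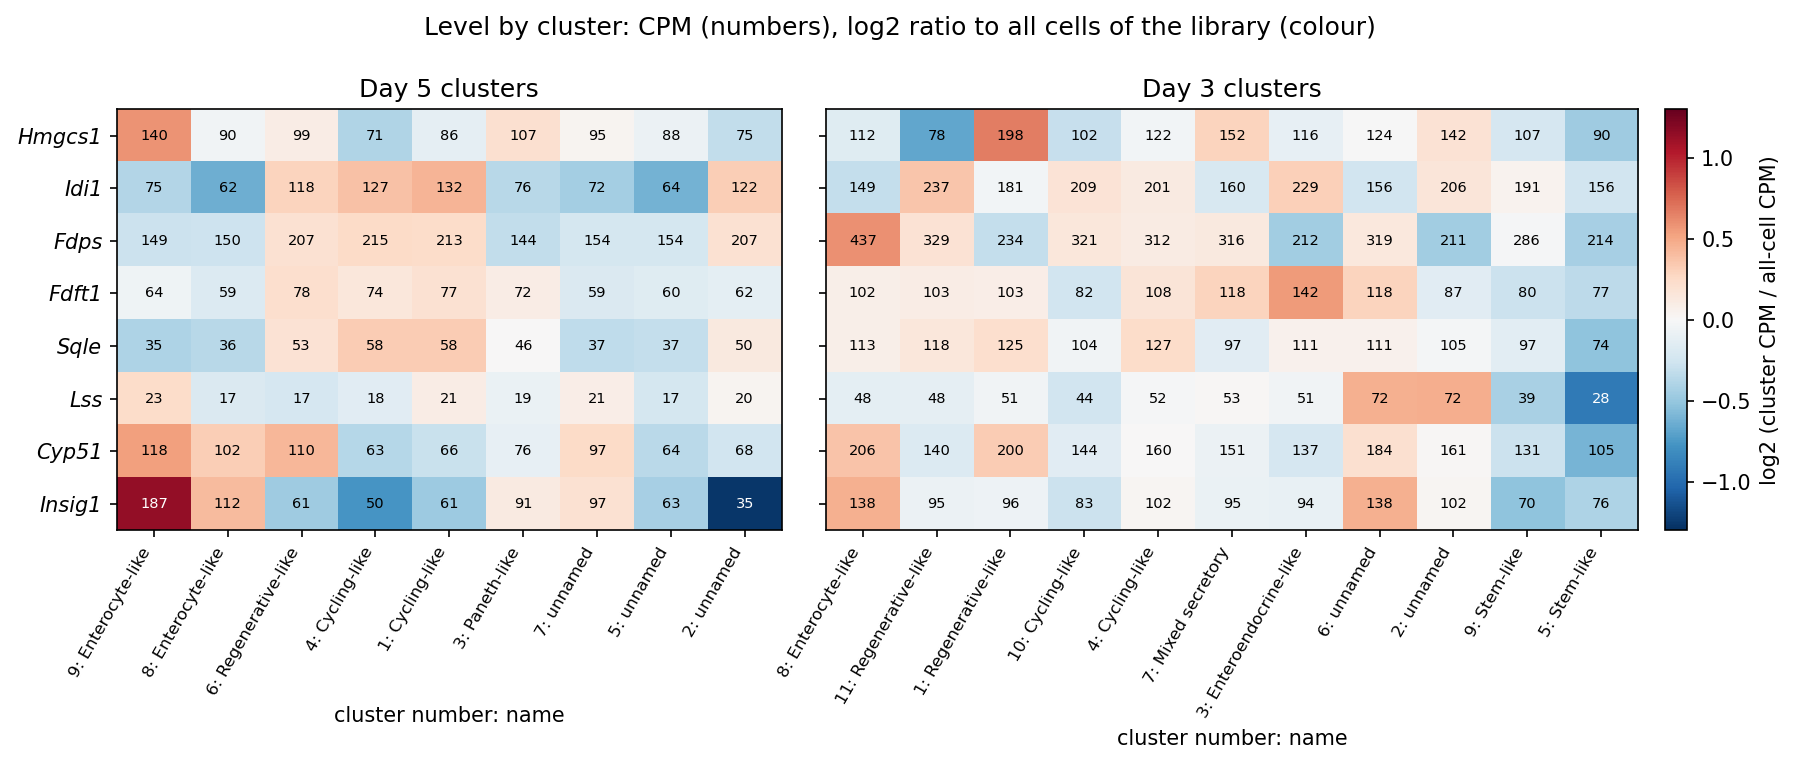
CPM of each gene in every cluster (numbers), with the log2 ratio to all cells of the same library as colour, for day 5 (left panel) and day 3 (right panel). At day 5 the colours are strongest for Insig1 (cluster 9 high, cluster 2 low), and at day 3 most of the Stem-like cluster 5 column lies below the library's level.

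Ordered by level across the 5 groups of a library, the genes showed different patterns. Insig1 led in Enterocyte-like cells in both libraries, apart from every other group by its interval, and was lowest in the crypt group of both. At day 5 it had 91.4 CPM in Paneth-like, 61.3 in Regenerative-like and 57.1 in Cycling-like cells, with neighbours overlapping, and at day 3 95.8 in Regenerative-like, 94.7 in secretory and 91.1 in Cycling-like cells, all overlapping. Cyp51 was highest in Enterocyte-like and Regenerative-like cells of both libraries, which overlapped each other. Its lowest values were 68.5 CPM in cluster 2 and 65.3 in Cycling-like cells at day 5, which overlapped, and 116 CPM in Stem-like cells at day 3, which stood apart. Hmgcs1 at day 5 was highest in Enterocyte-like cells and next in Paneth-like (107 CPM) and Regenerative-like cells (99.3 CPM), and at day 3 in Regenerative-like and secretory cells (169 and 144 CPM), which stood above the other 3 groups. Idi1 was highest in Cycling-like cells and lowest in Enterocyte-like cells of both libraries, with 130.0 and 69.1 CPM at day 5 and 206 and 149 CPM at day 3, each neighbour in the order overlapping the next.

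Fdps at day 5 had 214 CPM in Cycling-like, 207 in Regenerative-like and 207 in cluster 2 cells, which overlapped, above 149 in Enterocyte-like and 144 in Paneth-like cells. The Regenerative-like interval (168 to 252) still overlapped the Paneth-like one (119 to 174). At day 3 the Enterocyte-like Fdps value of 437 CPM stood above 317 in Cycling-like and 294 in secretory cells. Sqle at day 5 was highest in Cycling-like cells (58.1 CPM) and lowest in Enterocyte-like cells (35.5 CPM), with each neighbour in the order overlapping, and at day 3 it ran from 123 CPM in Regenerative-like to 83.8 CPM in Stem-like cells, again with overlapping neighbours. Fdft1 spanned 78.2 CPM in Regenerative-like to 61.6 CPM in cluster 2 cells at day 5, all neighbours overlapping, and at day 3 the Stem-like value of 77.8 CPM stood below the other 4 groups (93.2 to 123 CPM). Lss showed no difference beyond counting error among the day 5 groups (16.9 to 20.5 CPM), and at day 3 the Stem-like value of 32.5 CPM lay below the other 4 (47.3 to 52.3 CPM). The day 3 clusters 2 and 6, both unnamed, had the highest Lss values of that library (72.3 CPM in each).

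Within cells given the same name in both libraries, most of the genes were lower at day 5 than at day 3. The cells that share a name were not alike otherwise, and the part of this in the ratios was not tested. Enterocyte-like cells had 9.33% mitochondrial UMIs, a median of 10476 UMIs and 3162 CPM of the brush border gene Sis at day 5, against 5.82%, 24184 UMIs and 83.4 CPM at day 3. Cycling-like cells had 5.53% mitochondrial UMIs and a median of 20873 UMIs at day 5, against 4.37% and 30702 UMIs at day 3. With both libraries clustered together, the Enterocyte-like clusters held 232, 227 and 145 cells of day 5 and 2, 1 and 0 cells of day 3, and the Cycling-like clusters 2 and 0 cells of day 5 and 147 and 118 cells of day 3, so no comparison between days could be made there. In Enterocyte-like cells 6 of the 8 were lower by at least 1.5-fold, where 30.8% of 5247 genes were lower and 22.1% higher, with a median of -1.005 against -0.15 for all genes. Sqle had 35.5 CPM at day 5 and 113 CPM at day 3 (-1.67, -1.96 to -1.38), and Fdps 149 and 437 CPM (-1.55, -1.69 to -1.41). The pair that did not follow was Hmgcs1, at 117 CPM at day 5 and 112 CPM at day 3 (0.06, -0.15 to 0.28), and Insig1, at 153 and 138 CPM (0.14, -0.05 to 0.34), whose sign varied with the clustering (lowest -0.17, with cholesterol genes kept for clustering). The lowest Hmgcs1 ratio over the alternatives was -0.03. TMM factors raised these ratios by 0.27, which leaves 5 of the 8 lower with 21.4% of genes. Hmgcs1 was then at 0.33 and Insig1 at 0.41, both with intervals above 0. In Cycling-like cells 5 of the 8 were lower by that fold, where 24.4% of 7688 genes were lower and 8.31% higher. The median of the 8 was -0.67, against -0.25 for all genes. All 8 had intervals below 0 by CPM, though the share of all genes with such intervals was not counted. Under TMM the Fdft1 interval included 0. The genes past the fold were Idi1, Sqle, Lss, Cyp51 and Insig1, of which Lss, at 19.9 CPM at day 5 and 47.3 CPM at day 3 (-1.24), and Cyp51, at 65.3 and 150.4 CPM (-1.20), had the largest differences, and under TMM 3 of the 8 stayed past it with 14.2% of genes. In Regenerative-like cells (19 at day 5 and 93 at day 3) 6 of the 8 were lower, where 35.1% of 4932 genes were lower and 9.55% higher, while TMM scaling left 2 of the 8 and 24.1% of genes lower. In the same Enterocyte-like cells, 12 of 18 other sterol genes were lower at day 5 and 2 higher (7 and 2 by TMM), while 6 of 12 uptake and transport genes were higher and 1 lower (7 and 1 by TMM). By CPM, Insig1 had a ratio near 0 between days in Enterocyte-like cells and of -0.67 (-0.86 to -0.48) in Cycling-like cells, a difference that was not tested.

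The other cholesterol genes of day 5 absorptive cells were led by uptake and export. Of 12 uptake and transport genes with at least 100 UMIs, 9 were higher in Enterocyte-like cells than in cluster 2 and 2 lower (9 and 1 by TMM), where 31.7% of all genes were higher and 28.1% lower (39.5% and 20.7% by TMM), and the median log2 ratio was 2.004. Npc1l1 had 164 CPM in Enterocyte-like cells and 14.3 CPM in cluster 2 (3.49, 2.97 to 4.13), Abcg8 148 and 17.0 CPM (3.10), and Abcg5, its partner in the exporter, 114 and 13.8 CPM (3.02). These 3 are known genes of enterocytes, the cell type compared. Soat1, the broadly expressed cholesterol esterifying enzyme, had 7.39 CPM in Enterocyte-like cells and 50.4 CPM in cluster 2 (-2.76).

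Among the other sterol genes, 6 of 17 were higher in day 5 Enterocyte-like cells and 3 lower (7 and 3 by TMM), with a median of 0.26. That share of higher genes is near that of all genes, of which 31.7% were higher and 28.1% lower (39.5% and 20.7% by TMM). Lower were Lbr, a sterol reductase of the nuclear envelope (21.7 and 69.0 CPM), Acat2 (30.7 and 70.1 CPM) and Acly, which supplies acetyl-CoA (17.4 and 44.6 CPM). Of 9 SREBP control genes 6 were higher and 0 lower (8 and 0 under TMM), including Srebf2 at 52.9 CPM in Enterocyte-like cells and 28.7 CPM in cluster 2 (0.87). Scap, at 7.15 and 12.7 CPM (-0.84, -1.66 to 0.00), had too few UMIs to enter that count. Of 5 genes of isoprenoid use, 3 were lower and 0 higher (2 and 0 under TMM), the lowest being Pdss1, which starts the tail of coenzyme Q (31.9 and 91.9 CPM). The fatty acid list had 3 higher and 1 lower of 6 with either scaling.

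**Figure D4:**
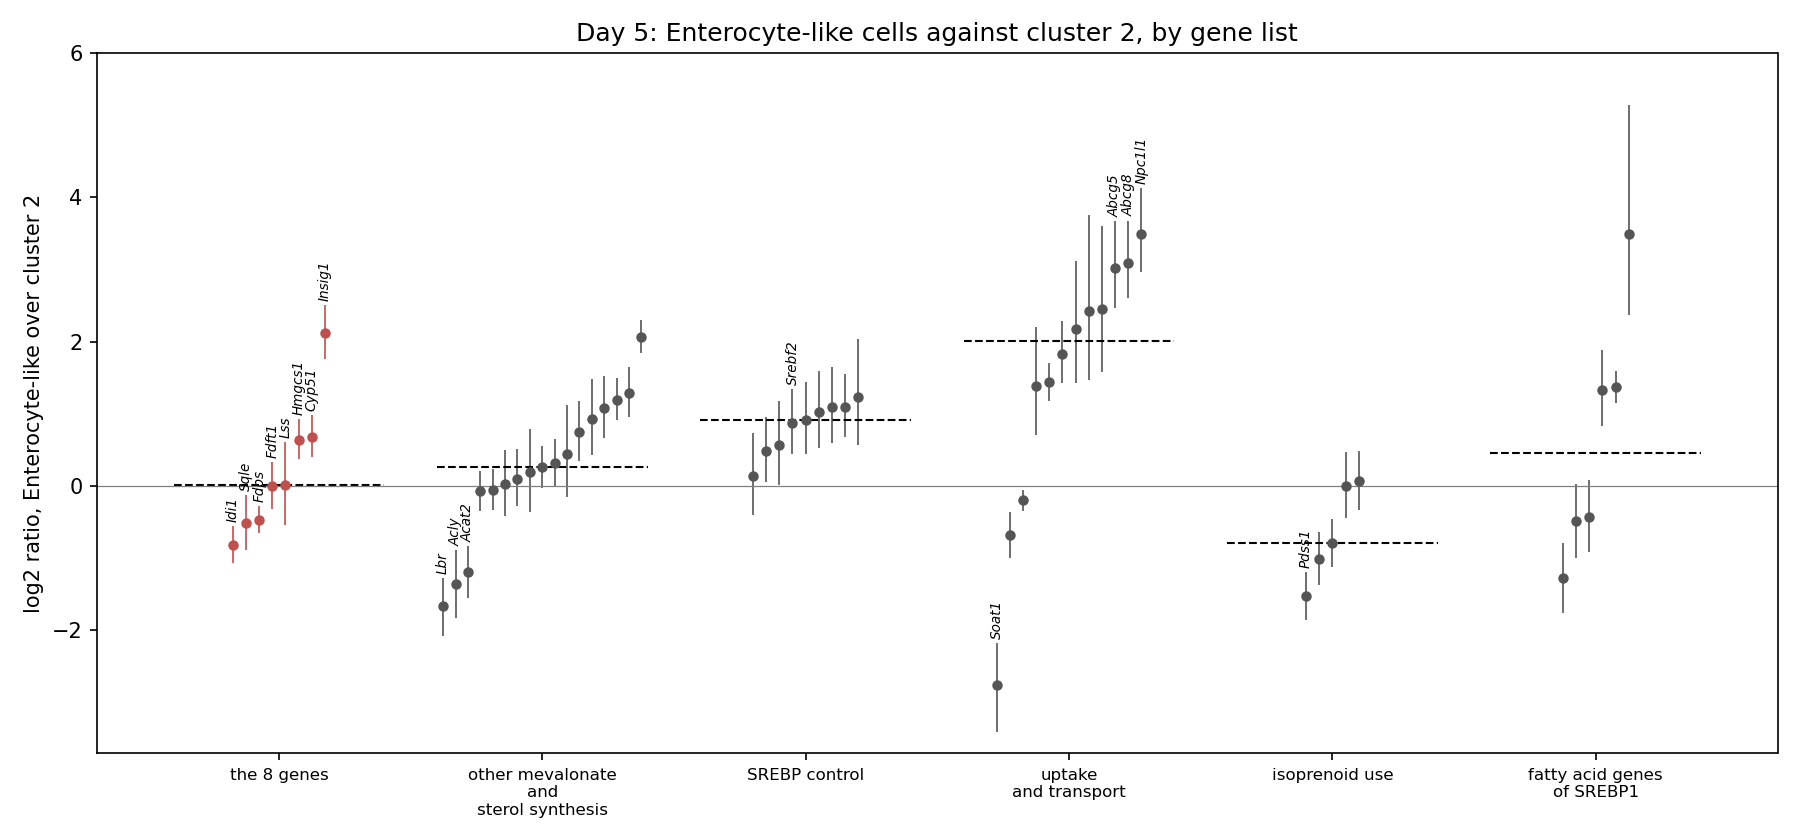
Log2 ratio of Enterocyte-like cells over cluster 2 at day 5 for the 8 genes (red) and for the other lists (grey), with 95% intervals for counting error, and dashed lines at each list's median, and labels on the genes whose values in this comparison the text gives. The 8 genes spread from -0.82 (Idi1) to 2.11 (Insig1) around a median of 0.01, and the uptake and transport genes lie around 2.004.

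Single cells varied widely around these summed levels. The summed CPM of the 8 genes in a cell had a median of 659 in Enterocyte-like cells of day 5, with a 5th to 95th percentile of 219.7 to 1501, and of 546 in cluster 2 (149 to 1440.1). At day 3 the median was 1250.2 in Enterocyte-like cells (454 to 2378) and 867 in Stem-like cells (458 to 1355). The ranges of cells thus overlapped between the 2 groups of each library. With each cell thinned to 6000 UMIs, the variance of UMIs over their mean, which is 1 for pure counting error, was highest for Insig1, at 1.46 at day 5 and 1.37 at day 3. It was 1.27 and 1.28 for Fdps, and between 0.963 (Sqle at day 3) and 1.19 (Hmgcs1 at day 3) for the other 6.

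**Figure D5:**
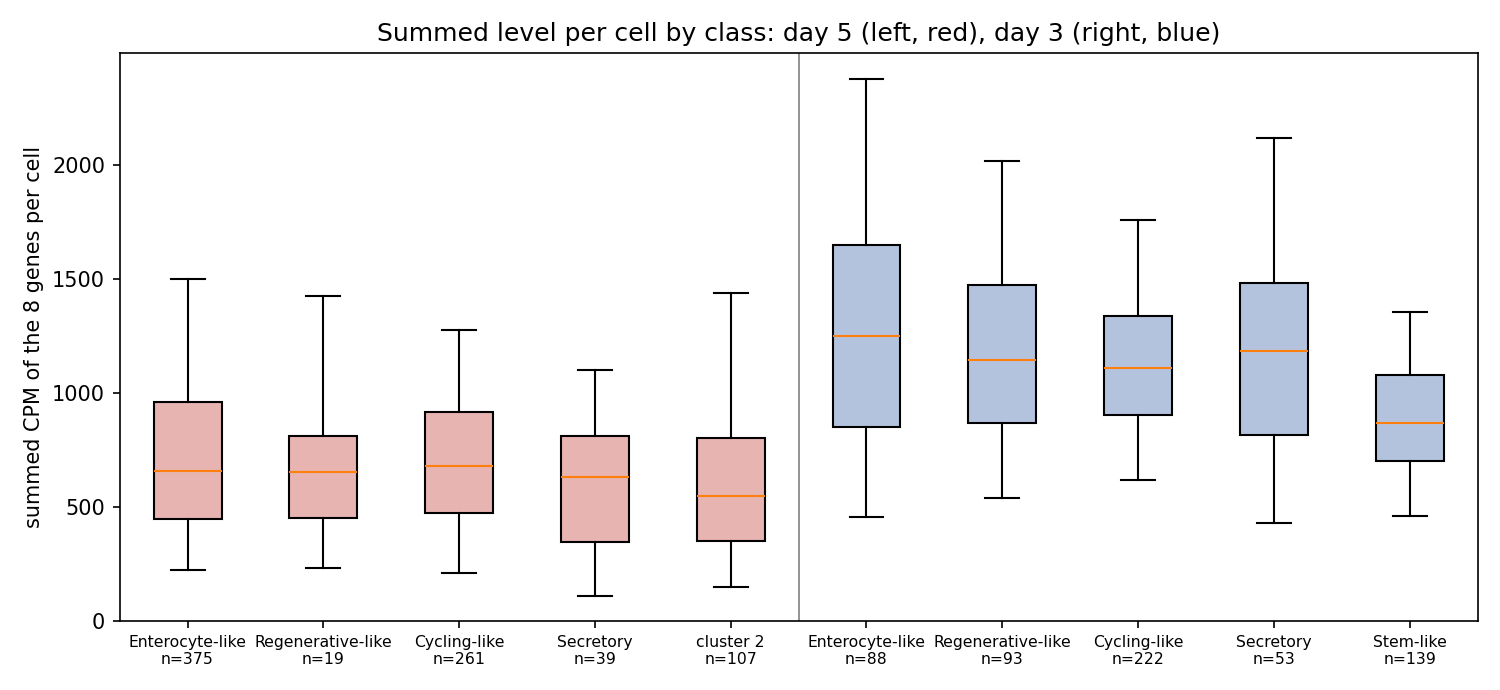
Summed CPM of the 8 genes in single cells of each class, for day 5 (left, red) and day 3 (right, blue), with boxes from the 25th to the 75th percentile, a line at the median and whiskers at the 5th and 95th. The day 3 medians lie between 867 (Stem-like) and 1250.2 (Enterocyte-like), above the day 5 medians of 546 (cluster 2) to 679.8 (Cycling-like).

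The genes most like the 8 across cells of the same library were sought among 2522 genes with a mean of at least 0.2 UMIs in thinned cells, by Pearson's r of log2(UMI + 1) with the summed 8 genes, averaged over the day 5 (1065 cells) and the day 3 library (798 cells). Among the 10 highest were Scd2 (mean r 0.23), the sterol methyl oxidase Msmo1 (0.20), Actb (0.19), the chaperone Hspa5 (0.15), Acat2, Anxa2, P4hb, Ldha and Mvd (0.13 to 0.14), against a median over genes of 0.013. Of these, 3 belong to the synthesis pathway (Msmo1, Acat2 and Mvd) and 1 to the fatty acid list (Scd2), while Actb, Anxa2 and Ldha are abundant transcripts of other processes. These correlations are weak, come from sparse counts that share library and cell, and are given as a description. Among the 8 themselves, the 28 pairs had r from 0.0037 to 0.15 at day 5 and from -0.034 to 0.14 at day 3.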

How the data were processed

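Single cells of organoids were captured on a 10x Genomics Chromium instrument with 3-prime chemistry, per the labels' protocols, and the submitters' processing notes name Cell Ranger 1.3.0 and build mm10. The authors deposited UMI counts for 15745 genes and 1863 cells, and log2 values of the same cells, each the log2 of the count over the cell's size factor plus 1, as checked on the values. The sources used here give no filter on genes or cells and no use of strand. Symbols were found for 15681 genes, and the other 64 held 0.0194% of UMIs.

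The 8 genes, the gene lists and the markers were chosen with earlier results of these data known. UMI counts were summed per library or class, with exact Poisson intervals, and log2 ratios had 0.5 UMI added and exact conditional (Clopper-Pearson) intervals. A gene counted as higher or lower at 1.5-fold, among genes with at least 10 UMIs (all cells) or 100 UMIs (classes, a minimum chosen after seeing the data). Named beside the 8 are Srebf2, Scap and Insig2 and genes among the 3 highest and 3 lowest of each list, and some list genes, though counted, are not reported here. Each library was clustered by the Leiden method (resolution 1, 2000 variable genes, 30 components, 15 neighbours, 82 cholesterol genes left out; scanpy 1.11.5, igraph 0.11.9). A type's name needed 3 or more of its markers in a cluster's 25 leading genes, without another type leading among the first 10. The planned day 5 comparisons with Stem-like cells could not be made, and cluster 2 took that place. Doublets were not called, and cells above 2 times the median UMIs (118 at day 5, 43 at day 3) were left out as an alternative. Sums and intervals were computed in Python 3.11.15 with scipy 1.17.1, TMM factors came from edgeR 4.0.16, and the calling rule was tested on simulated data.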

Additional observations from a re-analysis of the deposited data

Results flagged for a closer look

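Fdps and Sqle stood on opposite sides of 0 in absorptive against crypt cells of the 2 libraries, with counting intervals in summed CPM that exclude 0 in each. For Fdps the log2 ratio of Enterocyte-like over crypt cells was -0.47 at day 5 (-0.65 to -0.28, against cluster 2) and 0.84 at day 3 (0.72 to 0.96, against Stem-like cells). For Sqle it was -0.51 at day 5 (-0.89 to -0.12) and 0.43 at day 3 (0.21 to 0.65). TMM factors raised the day 5 ratios by 0.25, to -0.22 for Fdps and -0.26 for Sqle, after which the Sqle interval included 0. Set against Cycling-like cells, a class named by the same markers in both libraries, Fdps in Enterocyte-like cells was at -0.52 at day 5 (-0.66 to -0.38) and 0.46 at day 3 (0.36 to 0.57). Sqle was at -0.71 at day 5 (-0.997 to -0.43) and -0.01 at day 3 (-0.21 to 0.19) in that comparison, so it was not on opposite sides of 0 beyond counting error there. With 1 library a day these differences between libraries were not tested.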

How the results depend on the processing

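No value changed direction among genes past 1.5-fold in the main analysis under the alternatives run. The median of the 8 genes over all cells (-0.81) was -0.49 with TMM factors, -0.48 with median of ratios scaling, -0.74 with only the 320 day 5 cells that reach the day 3 minimum of UMIs, and -0.73 without Enterocyte-like cells. The count of genes lower at day 5 (5) was 4 to 6 under the 9 alternatives that keep the 1.5-fold limit and 2 at 2-fold. The median of Cycling-like over Stem-like cells at day 3 was 0.095 at resolution 0.5, against 0.34, and that of Enterocyte-like over Stem-like cells was 0.81 with the cholesterol genes kept for clustering, against 0.50. Between days, the median within Enterocyte-like cells was -0.74 and within Cycling-like cells -0.49 with TMM, against -1.005 and -0.67. The causes of these moves were not tested, except that scaling moves every ratio of a comparison alike. Of single-gene values, 93 moved beyond their counting interval and 323 did not. The comparisons with cluster 2 gave no value at resolution 0.5, and clustering both libraries together gave none for 4 comparisons (Cycling-like over cluster 2, Enterocyte-like over Stem-like, and the 2 between days within a class). Depth limits the values of Lss (341 UMIs at day 5) and of the 19 Regenerative-like cells of day 5. No paired analysis was possible because each day has 1 library and no test was made.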
